A study of Mus musculus with 20 samples.

Results

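Deoxynucleoside triphosphates (dNTPs) are the building blocks of DNA, and 9 genes that make, activate or remove them were followed through 20 RNA-seq libraries of a mouse liver cancer line: Rrm1, Rrm2, Rrm2b, Tyms, Tk1, Dut, Dck, Dtymk and Samhd1. The genes were chosen by symbol, and all 9 were found in both deposited tables, among 13107 genes in the first and 11210 in the second. The line, p19/Nras, is driven by Nras in cells that lack p19/Arf, so every group shared both changes, and the labels call it a hepatocellular carcinoma (HCC) line. In the Myc experiment, cells that received a control guide (Trim33-WT) and a pair of knockout lines made with CRISPR guides to Trim33 (KO1 and KO2) carried an empty pWZL vector (Ctrl) or a Myc vector, which gave 6 groups. In the HU experiment, Trim33-WT cells and 1 Trim33-KO line, which the labels do not match to KO1 or KO2, received vehicle or 1 mM hydroxyurea (HU) for 4 hours, which gave 4 groups. Each group had 2 replicates, and the labels do not say whether these came from separate cultures, so the p-values measure the spread between such samples, which may be technical.

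Ribonucleotide reductase removes the 2′ oxygen from ribonucleotides and is the source of all 4 DNA precursors made from scratch. Its large subunit, encoded by Rrm1, holds the catalytic and regulatory sites, and its small subunit carries the radical that starts the reaction. Rrm2 encodes the small subunit used in S phase, and Rrm2b encodes the form that p53 induces and that supplies resting cells and mitochondria. HU quenches the radical and stops the enzyme. Tyms makes thymidylate, Dut hydrolyses dUTP and so provides the substrate of Tyms and keeps uracil out of DNA, Tk1 and Dck salvage deoxynucleosides by phosphorylating them, Dtymk turns dTMP into dTDP, and Samhd1 degrades dNTPs.

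E2F factors and the CCAAT-binding factor NF-Y are known regulators of many S-phase genes, so the upstream sequences of the 3 members that carried both motifs are shown. Of the members, 8 had an entry among the RefSeq promoters (GRCm38.p6 table, 250 bases before to 50 bases after the start), and each of these was found letter for letter in NCBIM37, the mm9 assembly to which the reads had been mapped; Rrm2b had no entry. An E2F core (searched as TTCCCGC, also as TTCGCGC, also as TTGGCGC and also as TTGCCGC, on either strand) was present in Rrm1, Rrm2 and Dtymk and in 9.57% of all 32851 promoters. CCAAT (either strand) was present in the same 3 members and in 37.4% of all promoters. The windows were set by RefSeq starts, and for Dut this start lies 325 bases inside the annotated gene. The whole Dut window (chr2:125073001-125073300) therefore lies within the gene, which starts at 125072926. For Samhd1 and Tk1 the RefSeq start lies 169 and 78 bases inside the gene. Motifs present or absent in these windows describe partly or wholly gene sequence. The stretches below lie upstream of the annotated transcripts and are written on the gene's own strand, with E2F cores and CCAAT (or their reverse complements) in capitals. They lie at chr7:109590089-109590208 for Rrm1, at chr12:25392869-25393105 for Rrm2 and, on the minus strand, at chr1:95698512-95698631 for Dtymk.
Rrm1: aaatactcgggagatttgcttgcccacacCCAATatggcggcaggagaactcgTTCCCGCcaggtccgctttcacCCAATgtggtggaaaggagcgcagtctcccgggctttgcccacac
Rrm2: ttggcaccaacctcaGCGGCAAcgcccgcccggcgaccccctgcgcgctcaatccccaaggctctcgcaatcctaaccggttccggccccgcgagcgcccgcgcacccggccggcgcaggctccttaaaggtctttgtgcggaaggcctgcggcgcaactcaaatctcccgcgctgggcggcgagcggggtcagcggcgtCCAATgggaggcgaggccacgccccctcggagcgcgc
Dtymk: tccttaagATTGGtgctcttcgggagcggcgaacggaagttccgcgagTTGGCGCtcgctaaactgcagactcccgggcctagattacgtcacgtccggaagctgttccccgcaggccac

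The other motifs sat elsewhere. The CHR element TTTGAA was found in Dck alone among the 8 members and in 17.9% of all promoters. The E-box CACGTG, the site of Myc and related factors, was found in Tyms and Dtymk and in 7.15% of all promoters. The GC box GGGCGG was found in Rrm2, Tyms, Tk1, Dut, Dck and Samhd1 and in 35.7% of all promoters. These are letter matches in short windows, and binding was not measured in these files.

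The libraries of the Myc experiment held 14753177 to 17949430 counts and those of the HU experiment 2315327 to 3082202. In the table of the HU experiment, 71.9% of the counts between 1 and 50 were even numbers, against 48.4% in the Myc table, and whether both mates of a pair were counted is not stated. None of 10 hepatocyte markers, such as Alb, was listed in either table, while Krt8 ranged from 927 to 1910 CPM (the gene's count relative to the library's total, scaled with TMM factors) and Vim from 2731 to 3531 CPM in the Myc experiment. The epithelial markers Epcam and Cdh1 were not listed in either table. Among mesenchymal markers, Col3a1 ranged from 5.54 to 370.2 CPM, Col1a2 from 3.78 to 142 CPM and Pdgfrb from 16.3 to 204 CPM across the Myc libraries, and the part that this played in the members' levels was not tested. Of the 5 leukocyte markers Cd68 alone was listed, at up to 6.30 CPM, and none of 4 endothelial markers was. Trim33 mRNA, which a frameshift need not remove, stood at 139.7 and 125 CPM in the Trim33-WT vehicle libraries of the HU experiment and at 50.8 and 43.8 CPM in the knockout ones. In the Myc experiment it was 246 and 258 CPM in WT Ctrl, 123 and 130.4 CPM in KO1 Ctrl, and 201 and 207 CPM in KO2 Ctrl. In the Myc-vector libraries it went against the labels, with 131 and 155 CPM in the libraries labelled WT Myc against 185 and 193 CPM in those labelled KO1 Myc and 124.1 and 124.7 CPM in those labelled KO2 Myc. Myc mRNA was 433 and 439 CPM in WT Ctrl and 456 and 458 CPM in the libraries labelled WT Myc, a log2 difference of 0.07 that did not pass the test (edgeR, adjusted p = 0.31). Its mean was lower in KO1 Ctrl (191 CPM, log2 difference from WT Ctrl -1.19) and KO2 Ctrl (214 CPM, -1.02), and in those lines it rose with the Myc vector, to 633 CPM in KO1 (1.73) and to 479 CPM in KO2 (1.16). Directions that rest on Myc-vector libraries are therefore given by their labels.

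The first question was how the dNTP supply genes stood in cells that lacked Trim33. With the Ctrl vector, 7 of the 9 members rose and 2 fell in KO1, and the same held for KO2. In these lines the genes for the S-phase reductase, thymidylate synthesis, salvage and dNTP breakdown were all higher, and Rrm2b and Dut were lower. Both lines were set against the same WT Ctrl libraries. At the adjusted p of 0.01 used here, 52.2% of all genes passed in KO1, 25.5% as higher and 26.7% as lower, and 49.9% passed in KO2, 23.3% as higher and 26.6% as lower, so a call was common in these comparisons. The median log2 fold change of the 9 members was 0.79 in KO1 and 0.94 in KO2. All 9 calls were also made by DESeq2 in both lines, where 47% and 44.4% of all genes were called. They were made as well when the 6 Ctrl-vector libraries were fitted alone, where 61.5% and 59.4% were called. In the HU experiment with vehicle, 0 of the 9 members were called in KO against WT, where 5.58% of all genes were called. There Rrm2 (-0.29), Tyms (-0.41), Tk1 (-0.14), Dck (-0.21), Rrm2b (-0.13) and Dut (-0.28) were lower, and Rrm1 (0.10), Dtymk (0.20) and Samhd1 (0.16) higher.

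**Figure D1:**
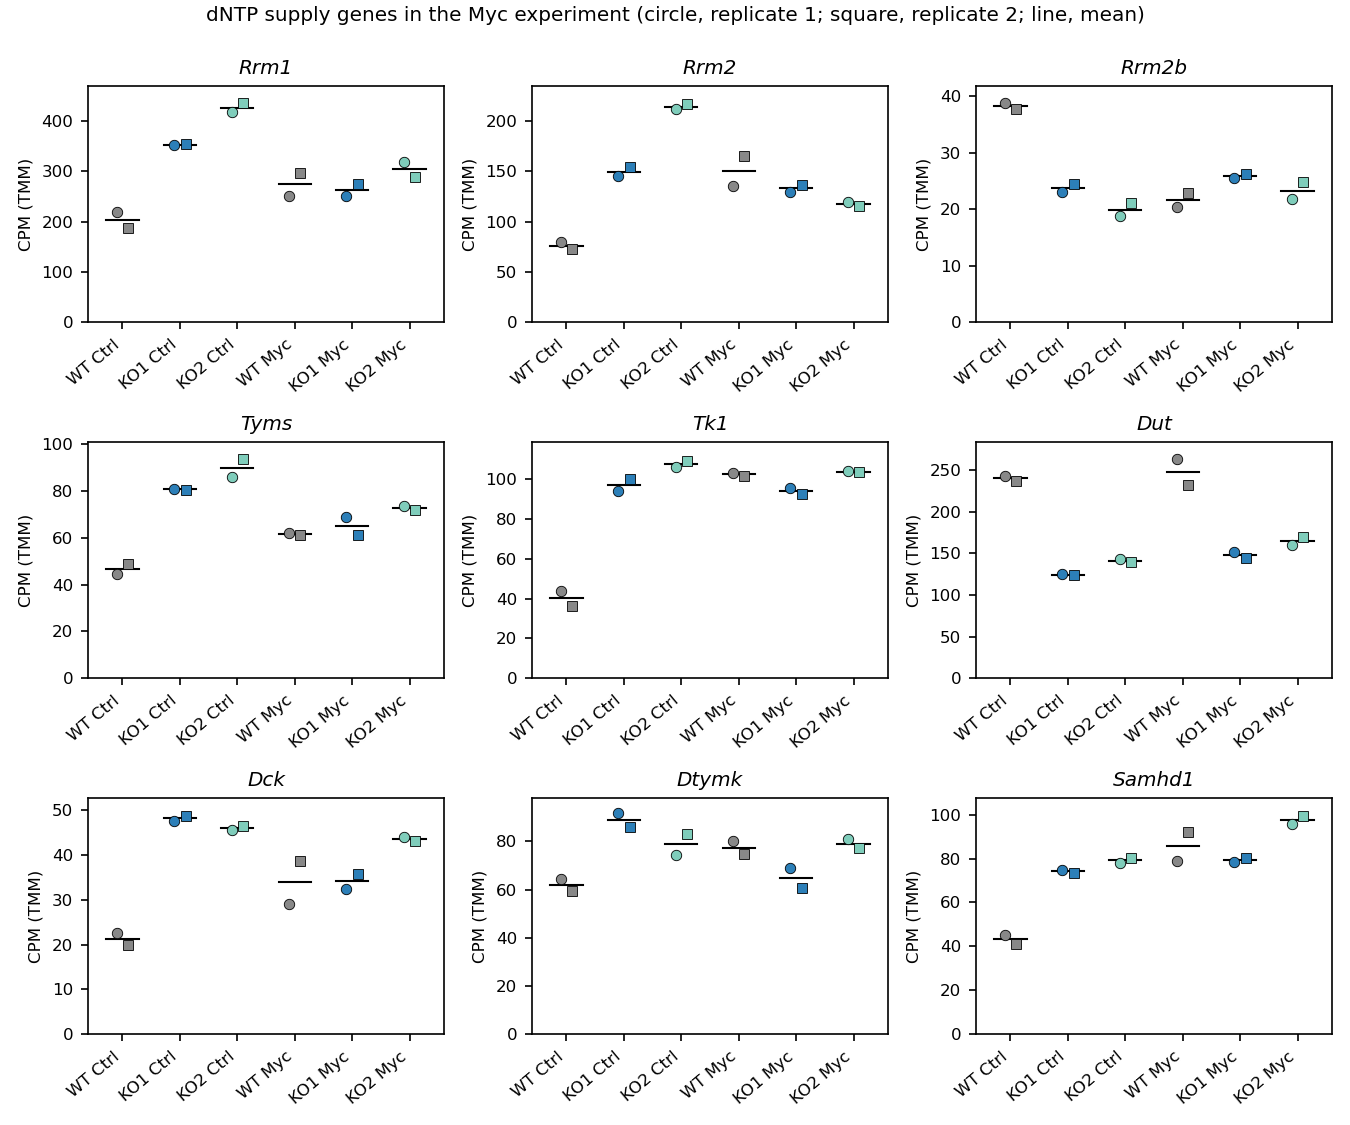
Level of each gene (CPM scaled with TMM factors, linear axis from 0) in the 12 libraries of the Myc experiment by group, with replicate 1 as a circle, replicate 2 as a square and the mean as a line. In the Dtymk panel the WT Ctrl libraries overlap with KO1 Myc, and in the Dut panel both WT groups lie above the 4 knockout groups. In the other panels WT Ctrl stands apart from every other group. How common such a separation was among all genes was not counted.

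Rrm2 had the largest fold change of the reductase genes. Its level was 80.1 and 72.5 CPM in WT Ctrl, 145 and 154 CPM in KO1 Ctrl, and 212 and 217 CPM in KO2 Ctrl, so the 3 groups did not overlap. The log2 fold change was 0.97 in KO1 (SE 0.08, adjusted p = 3.6e-08) and 1.49 in KO2 (SE 0.08, adjusted p = 2.7e-10). Rrm2 was also the one member that differed between the lines: it was higher in KO2 than in KO1 by 0.52 on the log2 scale (SE 0.08, adjusted p = 9.8e-05), where 18.3% of all genes were called. With only the 6 Ctrl-vector libraries in the fit, Rrm1 (0.29) and Dut (0.19) passed as well. Rrm2 lies on chromosome 12 (25393106 to 25399011, NCBIM37), and 4 other places in the genome match its transcript over at least 200 bases, at up to 95.5% identity, so reads that these share may have been lost or moved.

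Rrm1, the partner of either small subunit, was read at 219 and 187 CPM in WT Ctrl and rose to 353 and 354 CPM in KO1 Ctrl and to 419 and 435 CPM in KO2 Ctrl. The WT libraries lay far below both lines. Its log2 fold change was 0.80 in KO1 (SE 0.08, adjusted p = 3.9e-07) and 1.07 in KO2 (SE 0.08, adjusted p = 1.5e-08). The gene lies at 109590209 to 109618285 of chromosome 7, and no near copy of its transcript was found.

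Rrm2b moved the other way. It was at 38.9 and 37.7 CPM in WT Ctrl, at 23.0 and 24.6 CPM in KO1 Ctrl, and at 18.9 and 21.1 CPM in KO2 Ctrl. Both knockout lines thus lay below WT, by 0.69 on the log2 scale in KO1 (a fold of 0.622, SE 0.09, adjusted p = 5.1e-06) and by 0.94 in KO2 (a fold of 0.522, SE 0.09, adjusted p = 2.2e-07). The gene spans 37853707 to 37891073 of chromosome 15, and a single stretch elsewhere matches 93.4% of its transcript at 96.6% identity, which makes its counts uncertain.

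The ratio of the Rrm2 count to the Rrm2b count within a library needs no scaling between libraries. With the Ctrl vector it was 2.06 and 1.92 in WT cells but 6.31 and 6.27 in the KO1 line and 11.2 and 10.3 in the KO2 line. The balance between the mRNAs of the S-phase and the p53-linked small subunit therefore lay further towards Rrm2 in both lines. Rrm2 also gained on Rrm1: their count ratio moved from 0.365 and 0.387 in WT cells to 0.411 and 0.436 in the KO1 line and 0.506 and 0.498 in the KO2 line. Per kilobase of the longest coding transcript, Rrm1 (50.9 CPM per kb) still exceeded Rrm2 (34.8 CPM per kb) and Rrm2b (8.40 CPM per kb) in WT Ctrl, and the corresponding levels in KO2 Ctrl were 107, 97.7 and 4.38 CPM per kb.

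**Figure D2:**
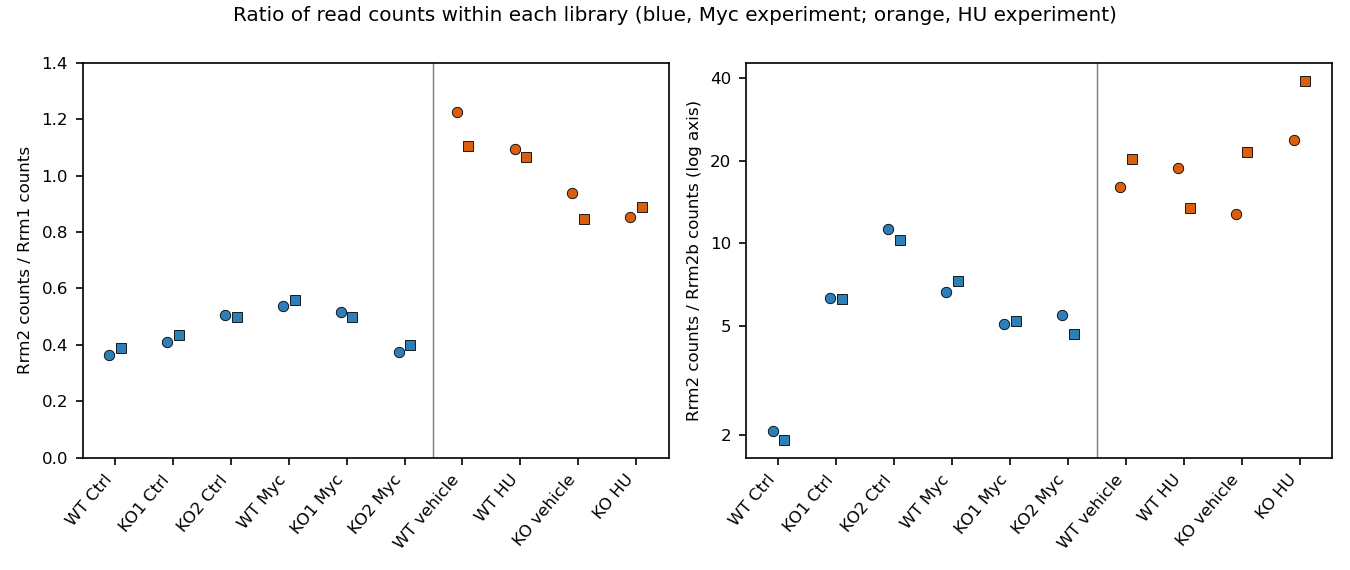
Ratio of read counts within each library, Rrm2 over Rrm1 on the left (linear axis from 0) and Rrm2 over Rrm2b on the right (log axis), for the 10 groups, with circles for replicate 1 and squares for replicate 2. Rrm2 over Rrm2b lies at 1.92 and 2.06 in WT Ctrl, and every other library is at 4.66 or above.

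Among the thymidylate genes, Tyms rose and Dut fell. Tyms was at 44.6 and 48.7 CPM in WT Ctrl, 80.7 and 80.4 CPM in KO1 Ctrl, and 85.9 and 93.5 CPM in KO2 Ctrl. This was a log2 rise of 0.79 in KO1 (SE 0.07, adjusted p = 1.1e-07) and of 0.94 in KO2 (SE 0.07, adjusted p = 1.4e-08), with no overlap between WT and either line. Dut, whose product feeds Tyms, was at 243 and 237 CPM in WT Ctrl but at 125 and 124 CPM in KO1 Ctrl and 143 and 139 CPM in KO2 Ctrl. Its log2 fold change was -0.95 in KO1 (SE 0.06, adjusted p = 2.1e-09) and -0.77 in KO2 (SE 0.06, adjusted p = 3.0e-08). The mRNAs for consecutive enzymes of 1 route thus changed in opposite directions, and enzyme levels were not measured here. The Dut to Tyms count ratio went from 5.44 and 4.87 in WT Ctrl to 1.54 in both KO1 Ctrl libraries and to 1.66 and 1.49 in KO2 Ctrl. Dut (chromosome 2, 125072926 to 125084344) had no near copy, whereas the Tyms transcript (chromosome 5, 30384742 to 30400157) matched 31 other places, the closest at 93.8% identity over 89.2% of its length.

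The salvage kinases had larger fold changes than Tyms. Tk1, the cytosolic thymidine kinase of proliferating cells, went from 44.1 and 36.5 CPM in WT Ctrl to 94.2 and 99.9 CPM in KO1 Ctrl and to 106 and 109 CPM in KO2 Ctrl. The log2 fold changes were 1.27 (SE 0.08, adjusted p = 4.7e-10) and 1.42 (SE 0.08, adjusted p = 1.7e-10). Dck, the kinase for deoxycytidine and purine deoxynucleosides, was at 22.5 and 19.8 CPM in WT Ctrl and between 45.5 and 48.7 CPM in the 4 knockout libraries. Its log2 fold change was 1.18 in KO1 and 1.12 in KO2 (SE 0.11 in each), and KO2 minus KO1 was -0.07 (95% interval -0.28 to 0.15). Tk1 (chromosome 11, 117676840 to 117687406) shares 83 exonic bases with Afmid on the other strand, and Tk1 has 2 near copies elsewhere, so its counts may hold reads of either.

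Dtymk changed least of the risers. It went from 64.4 and 59.3 CPM in WT Ctrl to 91.7 and 86.1 CPM in KO1 Ctrl and to 74.5 and 83.1 CPM in KO2 Ctrl, a log2 rise of 0.52 (SE 0.08, adjusted p = 2.4e-05) and of 0.35 (SE 0.08, adjusted p = 0.0012). The KO2 call was lost without WT Ctrl replicate 2 (0.29, adjusted p = 0.0248) and without KO2 Ctrl replicate 2 (0.27, adjusted p = 0.0288). Samhd1, the dNTP hydrolase, rose from 45.4 and 41.1 CPM to 74.9 and 73.5 CPM in KO1 Ctrl and to 78.1 and 80.3 CPM in KO2 Ctrl. The gene for dNTP breakdown therefore rose along with those for dNTP synthesis, by 0.78 in KO1 and 0.87 in KO2 (SE 0.08 in each).

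The rest of the dNTP pathway was read from a list of 34 genes, of which 12 rose and 8 fell in KO1 and 13 rose and 6 fell in KO2. Of all genes, 52.2% were called in KO1 and 49.9% in KO2, so these counts alone do not set the list apart. The median log2 fold change of the list was 0.16 and 0.18, against 0.79 and 0.94 for the 9 members. Among called genes with a mean of at least 5 CPM, the largest rises in KO1 were those of Glrx (1.47), a glutaredoxin that reduces the reductase, the nucleoside diphosphate kinase gene Nme4 (1.12) and the cytidine deaminase gene Cda (0.91). In KO2 they included those of Glrx (1.68) and the adenosine deaminase gene Ada (1.20). The mitochondrial pyrimidine nucleotide carrier gene Slc25a33 fell by 2.28 in KO1 and fell by 2.09 in KO2, the largest falls of the list. It was followed by the 5′-nucleotidase gene Nt5c2 (-0.81) and the mitochondrial thymidine kinase gene Tk2 (-0.67) in KO1, and by Nt5c2 (-0.72) and the mitochondrial nucleotidase gene Nt5m (-0.66) in KO2. Ada was higher in KO2 than in KO1 by 1.84 on the log2 scale (adjusted p = 1.4e-08).

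Other lists moved beside the members. Of 20 S-phase genes, such as those of the MCM helicase, 18 rose and 1 fell in KO1 (median log2 fold change 0.76), and 18 rose and none fell in KO2 (median 0.87). Of 15 G2/M genes, 11 rose and 2 fell in KO1 and 13 rose in KO2. Of 15 p53 targets, 3 rose and 11 fell in KO1, and 5 rose and 7 fell in KO2. Of all genes, 25.5% rose and 26.7% fell in KO1, and 23.3% rose and 26.6% fell in KO2, by the same threshold. In bulk RNA, a larger share of cells in S phase and more of each mRNA per cell cannot be told apart, and the part that cell cycle position played in the members' levels was not tested.

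The next question was how the same genes stood in the libraries labelled with the Myc vector. Between WT Myc and WT Ctrl, the log2 fold change of Myc mRNA itself was 0.07 (edgeR, adjusted p = 0.31). That of Trim33 mRNA was -0.82 (edgeR, adjusted p = 7.0e-08). The part that either played in the members' values was not tested. In Trim33-WT cells 7 members rose, 1 fell (Rrm2b) and Dut did not pass the test, where 44.3% of all genes were called (21.6% higher and 22.7% lower). The rises were those of Tk1 (1.35, SE 0.08), Samhd1 (0.99, SE 0.08), Rrm2 (0.98, SE 0.08), Dck (0.68, SE 0.11), Rrm1 (0.43, SE 0.08), Tyms (0.40, SE 0.07) and Dtymk (0.32, SE 0.08) on the log2 scale. Tk1 reached 103 and 102 CPM with the Myc vector, and Rrm2 reached 135 and 166 CPM. Rrm2b went down to 20.4 and 22.9 CPM, a log2 change of -0.82 (SE 0.09, adjusted p = 1.3e-06). Dut stayed between 233 and 263 CPM (log2 fold change 0.05, 95% interval -0.08 to 0.18). This comparison used the same WT Ctrl libraries as the knockout ones, so they are not independent of each other, and without WT Ctrl replicate 2 the calls for Rrm1 (0.32, adjusted p = 0.014) and Dtymk (0.26, adjusted p = 0.044) were lost. Of the S-phase list 19 genes rose and 1 fell, with a median log2 fold change of 0.75, and of the 34 other pathway genes 14 rose and 4 fell, with a median of 0.17.

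In the knockout lines the Myc vector went with lower rather than higher levels for several members. In KO1, Rrm1 (-0.43), Tyms (-0.31), Dck (-0.50) and Dtymk (-0.45) fell and Dut rose (0.25), where 36.1% of all genes were called. In KO2, Rrm1 (-0.49), Rrm2 (-0.87) and Tyms (-0.31) fell and Dut (0.22) and Samhd1 (0.30) rose, where 38.8% of all genes were called. Rrm2 in KO2 went from 212 and 217 CPM with the Ctrl vector to 119.5 and 116 CPM with the Myc vector. Several of these calls depended on single libraries. In KO1, Tyms was lost without either Ctrl library or without KO1 Myc replicate 2 (-0.31 to -0.23), Dut without either Ctrl library or without KO1 Myc replicate 1 (0.23 to 0.25), and Rrm1 (-0.34) and Dck (-0.41) without KO1 Myc replicate 1. In KO2, Dut was lost without any 1 of its 4 libraries (0.18 to 0.27) and in DESeq2 (0.21), Samhd1 without either Ctrl library or without KO2 Myc replicate 2 (0.27 to 0.32), and Tyms without KO2 Ctrl replicate 2 (-0.24) or KO2 Myc replicate 2 (-0.29). Tk1 did not pass in either line, with a log2 fold change of -0.04 in KO1 (95% interval -0.19 to 0.10) and of -0.05 in KO2 (95% interval -0.20 to 0.09).

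**Figure D3:**
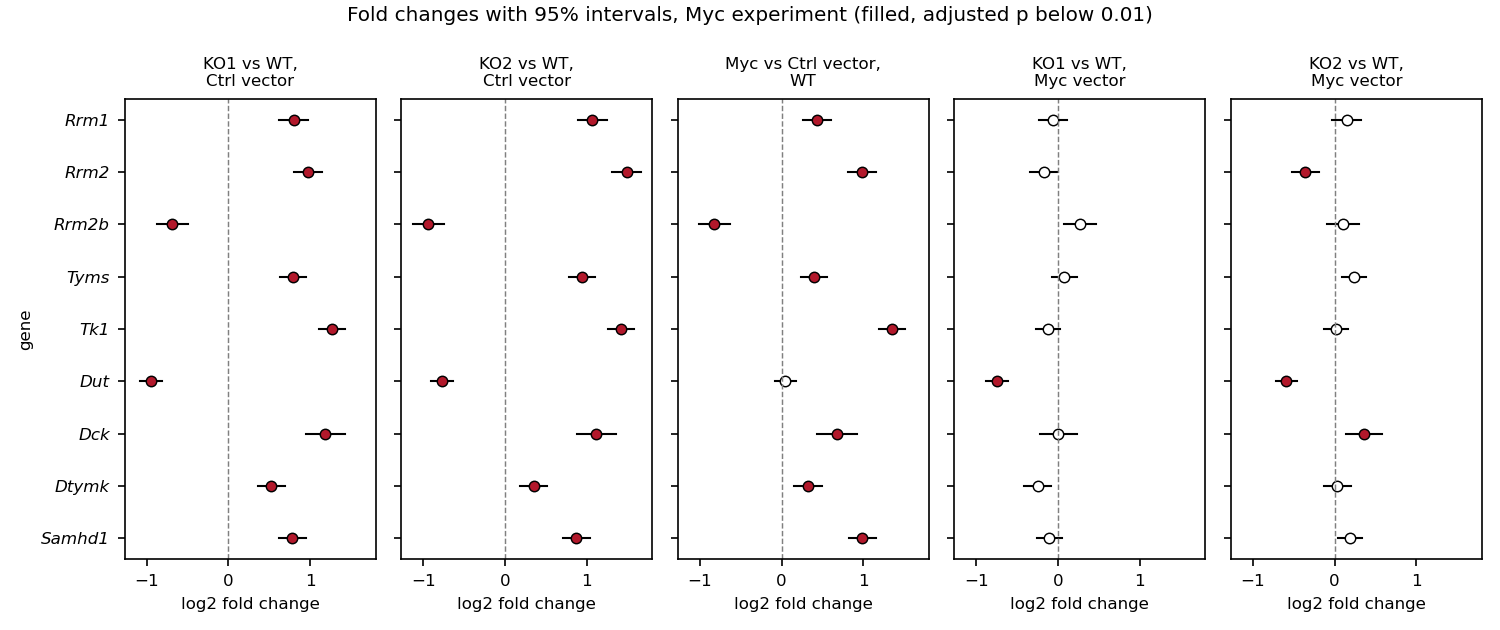
Log2 fold change of each gene with its 95% interval in 5 comparisons of the Myc experiment, with filled points at an adjusted p below 0.01 (edgeR). All 9 points are filled in both knockout comparisons with the Ctrl vector, 8 in the Myc comparison, and 1 and 3 in the knockout comparisons with the Myc vector, where Dut is the filled point that both share.

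The effect of the vector differed between genotypes when this was tested directly. Myc mRNA itself rose more with the vector in the knockout lines than in WT (edgeR). That difference was 1.66 in KO1 (SE 0.08, adjusted p = 1.5e-10) and 1.09 in KO2 (SE 0.08, adjusted p = 1.9e-08) on the log2 scale. The part this played in the members' values was not tested. The Myc effect in KO1 minus that in WT passed for 8 members, where 37.3% of all genes were called, and in KO2 minus WT for 7 members, where 32.8% were called. It was negative for every called member except Rrm2b. Rrm2 gave -1.15 in KO1 (SE 0.11, adjusted p = 5.4e-07) and -1.85 in KO2 (SE 0.11, adjusted p = 3.4e-09). Tk1 gave -1.39 and -1.40 (SE 0.10 in each), and Rrm2b gave 0.95 and 1.04 (SE 0.13 in each). Dut did not pass in either line, with 0.20 (adjusted p = 0.070) in KO1 and 0.18 (adjusted p = 0.12) in KO2. Without WT Myc replicate 1, however, Dut passed in both (0.29, adjusted p = 0.0026, and 0.27, adjusted p = 0.00547), and without WT Myc replicate 2 Dtymk passed in KO2 (-0.37, adjusted p = 0.0069).

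The knockout lines were also compared with WT with the Myc vector in all cells. In KO1 against WT 1 member passed, where 25.1% of all genes were called, and in KO2 against WT 3 members passed, where 35.2% were called. Dut was lower in both, at 152 and 144 CPM in KO1 Myc and 159 and 169.7 CPM in KO2 Myc against 263 and 233 CPM in WT Myc. Its log2 fold change was -0.75 in KO1 (SE 0.06, adjusted p = 1.6e-07) and -0.59 in KO2 (SE 0.06, adjusted p = 1.1e-06), and Dut was the one member called lower in both knockouts whichever vector was present. Rrm2 was lower in KO2 Myc than in WT Myc (-0.36, SE 0.08, adjusted p = 0.0015), the reverse of its order with the Ctrl vector, and Dck was higher (0.36, SE 0.10, adjusted p = 0.0086). When the 4 libraries of the comparison were fitted alone, Rrm2 (adjusted p = 0.019) and Dck (adjusted p = 0.048) no longer passed. Dck was also lost without WT Myc replicate 1 (0.17) or without either KO2 Myc library (0.35 and 0.37), and Rrm2 without WT Myc replicate 2 (-0.20) or without KO2 Myc replicate 2 (-0.34). Without WT Myc replicate 1 Rrm2 was called in KO1 against WT (-0.31), and without WT Myc replicate 2 Dtymk was called in KO1 (-0.30) and Rrm1 (0.27) and Samhd1 (0.30) in KO2. The WT Myc replicates differed from each other more than those of any other group. Rrm2b gave 0.26 in KO1 (95% interval 0.07 to 0.46, adjusted p = 0.035) and 0.11 in KO2 (95% interval -0.09 to 0.30).

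Ranked over the 6 groups, Rrm1 and Rrm2 had the same lowest and highest group, WT Ctrl and KO2 Ctrl. For Rrm2b WT Ctrl was highest by far, while the other 5 groups had means between 19.98 and 25.98 CPM. Neighbours in that order could lie close together. Tk1 had means of 94.1, 97.1, 102, 104 and 108 CPM in KO1 Myc, KO1 Ctrl, WT Myc, KO2 Myc and KO2 Ctrl, against 40.3 CPM in WT Ctrl. Among these neighbours, KO1 Myc minus KO1 Ctrl (-0.04), KO2 Myc minus WT Myc (0.02) and KO2 Myc minus KO2 Ctrl (-0.05) did not pass the test. The libraries overlapped only in the first of these pairs, and KO1 Ctrl was not compared with WT Myc. The genes most like Rrm2 over the 12 libraries, by Pearson's r of log2 CPM, were Cdc6 (0.98), Neurl1b (0.97), Shcbp1 (0.97), Fam83d (0.97) and Mcm5 (0.97). Over the 8 libraries of the HU experiment their r with Rrm2 ran from -0.39 (Mcm5) to 0.33 (Shcbp1). The genes most like Rrm2b were Eea1 (0.97), Vamp2 (0.97), Senp6 (0.96), Gab2 (0.96) and Gm6768 (0.96), with r from -0.66 (Gab2) to 0.79 (Senp6) in the HU experiment. These values describe libraries that share groups and scaling, and they carry no test.

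The HU experiment asked how cells with and without Trim33 responded when the reductase itself was blocked. None of the 9 members passed the edgeR test at an adjusted p of 0.05 in Trim33-WT or in Trim33-KO cells, where 9.83% and 6.45% of all genes were called. At an unadjusted p under 0.05 there were 3 members in WT (Rrm2, Tyms and Samhd1) and 4 in KO (Rrm2b, Tyms, Tk1 and Dck), against 2413 and 1963 of all 11210 genes, and DESeq2 also called 0 members in each. The treatment was visible elsewhere: 14 of 15 p53 targets rose in both, with a median log2 fold change of 2.25 in WT and 1.97 in KO, and 10 and 9 of 15 G2/M genes fell. Of the 20 S-phase genes 1 rose and none fell in each.

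**Figure D4:**
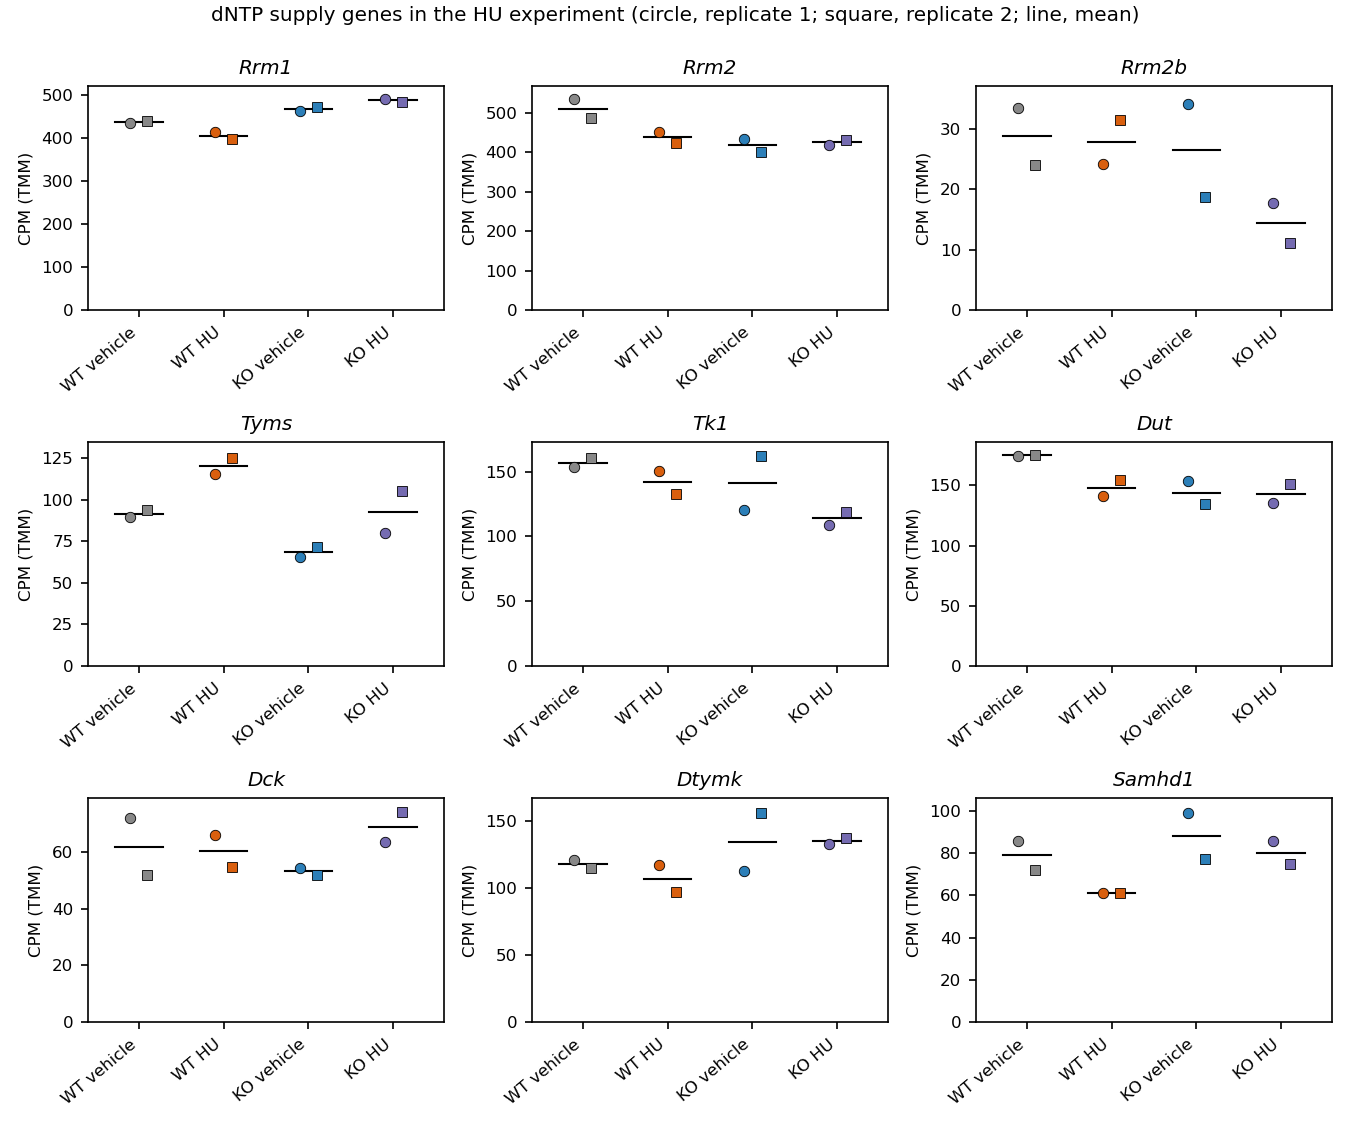
Level of each gene (CPM scaled with TMM factors, linear axis from 0) in the 8 libraries of the HU experiment by group, with replicate 1 as a circle, replicate 2 as a square and the mean as a line. Tyms is higher in both HU groups than in the matching vehicle group, and the Rrm2b panel has KO HU lowest, at 17.7 and 11.1 CPM.

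Of the genes for the enzyme that HU inhibits, Rrm1 and Rrm2 had log2 changes between -0.22 and 0.06 under HU. Rrm2b is described after them. Rrm1 was at 436 and 440.2 CPM in WT vehicle, 414 and 398 CPM in WT HU, 465 and 473 CPM in KO vehicle, and 492 and 484 CPM in KO HU. Its HU effect was -0.11 in WT (95% interval -0.31 to 0.09) and 0.06 in KO (95% interval -0.14 to 0.26) on the log2 scale. Rrm2 was at 535 and 486 CPM in WT vehicle and 453 and 424 CPM in WT HU, a log2 change of -0.22 (95% interval -0.42 to -0.01, adjusted p = 0.19). In the knockout it was at 435 and 401 CPM with vehicle and 419.9 and 432 CPM with HU (0.03, 95% interval -0.18 to 0.23).

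Rrm2b is a p53 target in textbook accounts, but it did not join the rise of the p53 list. It was read at 33.4 and 24.1 CPM in WT vehicle and at 24.2 and 31.5 CPM in WT HU, so these groups overlapped (log2 fold change -0.04, 95% interval -0.59 to 0.51). In the knockout it went from 34.2 and 18.7 CPM with vehicle to 17.7 and 11.1 CPM with HU, a log2 change of -0.85 (SE 0.30, adjusted p = 0.079) with no overlap. These levels rest on 28 to 91 counts a library. Leaving out each of the 4 KO libraries in turn moved the change in KO between -1.24 (without KO vehicle replicate 2, adjusted p = 0.017, the one such fit that passed) and -0.36 (without KO vehicle replicate 1, adjusted p = 0.70). The difference of the HU effect between KO and WT was -0.81 (95% interval -1.62 to 0.01, adjusted p = 0.93), and it ranged from -1.19 to -0.31 as single libraries were left out.

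Tyms had higher levels with HU in both genotypes. It was at 89.5 and 93.6 CPM in WT vehicle and 115.5 and 125 CPM in WT HU, and at 65.9 and 71.8 CPM in KO vehicle and 80.2 and 105.5 CPM in KO HU. Neither pair of groups overlapped. The log2 fold change was 0.39 in WT (SE 0.15, adjusted p = 0.083) and 0.43 in KO (SE 0.16, adjusted p = 0.095), and their difference was 0.03 (95% interval -0.40 to 0.46). The mean of both effects, a contrast added after these values were seen, was 0.41 (SE 0.11, adjusted p = 0.0040), a fold of 1.33; of all genes 16% were called in that contrast, and Tyms was the one member among them. As each of the 4 KO libraries was left out, the change in KO ran from 0.22 (without KO HU replicate 2, adjusted p = 0.69) to 0.61 (without KO HU replicate 1, adjusted p = 0.046), and only the latter passed.

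The remaining members gave small values. For Tk1 the HU effect was -0.15 in WT and -0.32 in KO (adjusted p = 0.18 in KO), and as each KO library was left out the latter ran from -0.50 (without KO vehicle replicate 1, adjusted p = 0.032) to -0.09 (without KO vehicle replicate 2, adjusted p = 0.83). Samhd1 went from 85.7 and 72.2 CPM to 61.1 and 61.3 CPM in WT (-0.36, adjusted p = 0.18) and gave -0.13 in KO. Dck gave -0.03 in WT and 0.37 in KO (adjusted p = 0.28). Dut (-0.24 and -0.01) and Dtymk (-0.14 and 0.00) also stayed under the threshold. No member passed the test of the difference between the HU effects of KO and WT in edgeR or DESeq2, where 0.0714% of all genes were called in edgeR and 5 genes in DESeq2. At an unadjusted p under 0.05 in edgeR there were 0 members and 602 of all 11210 genes.

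**Figure D5:**
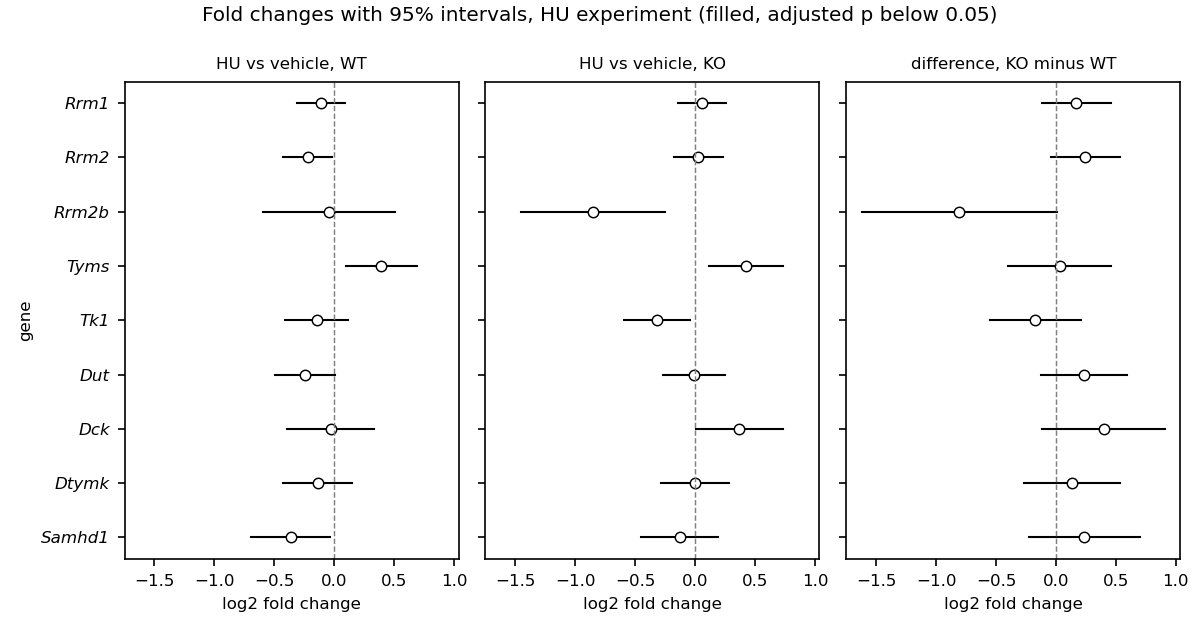
Log2 fold change of each gene with its 95% interval for HU against vehicle in WT and in KO, and for the difference of both effects, with filled points reserved for an adjusted p below 0.05 (edgeR). No point is filled, and the intervals of Rrm2b are the widest.

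Knockout and WT cells of the HU experiment were compared as well. With vehicle, none of the members passed at an adjusted p of 0.01 in edgeR or DESeq2, where 5.58% of all genes were called in edgeR, and 3 members had an unadjusted p under 0.05 (Rrm2, Tyms and Dut), as did 2766 of the 11210 genes. Rrm2 was lower in KO by 0.29 on the log2 scale (95% interval -0.50 to -0.08, adjusted p = 0.054) and Tyms by 0.41 (95% interval -0.72 to -0.10, adjusted p = 0.078). Rrm1 gave 0.10 (95% interval -0.11 to 0.30) and Tk1 gave -0.14 (95% interval -0.41 to 0.12), so the intervals of these 4 genes leave out the sizes that they had in KO1 and KO2 with the Ctrl vector. With HU, again none passed in either tool, where 6.04% of all genes were called in edgeR, and 6 members, among 2718 of the 11210 genes, had an unadjusted p under 0.05. Rrm2b had the smallest p among them, with a log2 difference of -0.94 (SE 0.30, adjusted p = 0.027). The experiments also differed in the levels of the members in WT cells. Mean CPM in WT vehicle against WT Ctrl was 511 against 76.3 for Rrm2, 438 against 203 for Rrm1, and 157 against 40.3 for Tk1. It was 61.9 against 21.2 for Dck, 91.6 against 46.6 for Tyms, 118 against 61.9 for Dtymk, and 78.9 against 43.2 for Samhd1. Dut (175 against 240) and Rrm2b (28.7 against 38.3) were lower in WT vehicle. The Rrm2 to Rrm1 count ratio was 1.23 and 1.11 in WT vehicle against 0.365 and 0.387 in WT Ctrl. The Rrm2 to Rrm2b ratio was 16.0 and 20.2 against 2.06 and 1.92. The counts of each experiment were made separately, so these values are set side by side without a test.

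In the wider pathway few genes were called under HU, and the shares of all genes called were also low, at 9.83% in WT and 6.45% in KO. Of 33 listed genes in that table, 1 fell in WT, the thioredoxin gene Txn1 (-0.37, SE 0.11, adjusted p = 0.015), and none rose. In KO 1 rose, the carrier gene Slc25a33 (0.94, SE 0.26, adjusted p = 0.015), and none fell. Between knockout and WT, 0 of the 33 genes were called with vehicle by either tool, where 5.58% of all genes were called in edgeR. At an unadjusted p under 0.05 there were 7 of the 33, against 2766 of all 11210 genes. With HU, 2 of the 33 genes were called higher in KO than in WT and none lower, where 6.04% of all genes were called. At that unadjusted p there were 11 of the 33, against 2718 of all 11210 genes. Txn1 was among the 2 called genes (0.56, SE 0.11, adjusted p = 0.00012).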

How the data were processed

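RNA-seq of 20 samples was analysed from the counts that the authors deposited, as whole-number read counts per Entrez gene in 1 table for each experiment. Per the labels, reads had been mapped to mm9 with STAR 2.5.4 and compared with edgeR 3.26.8; the counting tool, its strand setting and any earlier filter are not given in the sources used here, and the labels and methods name different kits (TRIzol and NEBNext Ultra II, RNeasy and NEBNext Ultra). The first table is titled as normalized, but its values are whole numbers with differing totals and were taken as counts. The tables of the authors' own comparisons (log2 fold changes, mean log2 CPM, F, p and adjusted p) were not used. Samples were grouped by title.

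All libraries of an experiment (2 per group) were fitted with edgeR 4.0.16 in R 4.3.3 (TMM factors, filterByExpr, which removed 0 genes, quasi-likelihood F-test), and p-values were adjusted by Benjamini-Hochberg over all genes, with thresholds of 0.01 for knockout and Myc comparisons and 0.05 for HU. Intervals are 95%. The common biological coefficient of variation was 0.0498 in the Myc and 0.102 in the HU experiment, so smaller changes could be called in the former. The fit was tested on simulated data. Alternatives were DESeq2 1.42.0, RLE factors, other filters, a replicate block, the compared groups alone, halved HU counts, another threshold and leaving out each library. Near copies (at least 200 matching bases) were found with minimap2 2.31-r1302 in NCBIM37, and transcripts come from GENCODE M1.

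Named were the 9 members, from a pathway list the 3 called genes with the largest rise and fall in each knockout line and under HU (mean CPM of at least 5), the 5 genes most like Rrm2 and Rrm2b, and Trim33 and Myc as checks. Ada between the lines, the named pathway genes in the other line, and Slc25a33 and Txn1 in the knockout cells of the HU experiment, were named after their values were seen. Some items that the rule names are not reported here. The members and lists were chosen with earlier results of these data known. Same-numbered replicates were not treated as pairs.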

Additional observations from a re-analysis of the deposited data

Results flagged for a closer look

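Rrm2 was flagged because its level differed between the KO1 and KO2 lines with the Ctrl vector (KO2 minus KO1, 0.52 on the log2 scale, SE 0.08).

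The Myc effect differed between genotypes by a test of the difference itself. In KO1 minus WT it was -0.86 for Rrm1, -1.15 for Rrm2, 0.95 for Rrm2b, -0.71 for Tyms, -1.39 for Tk1, -1.18 for Dck, -0.77 for Dtymk and -0.89 for Samhd1 on the log2 scale. In KO2 minus WT it was -0.92 for Rrm1, -1.85 for Rrm2, 1.04 for Rrm2b, -0.71 for Tyms, -1.40 for Tk1, -0.76 for Dck and -0.69 for Samhd1. Both differences use the same WT Ctrl and WT Myc libraries. Trim33 mRNA in these libraries went against the labels of the Myc-vector groups. Myc mRNA rose more with the vector in KO1 and KO2 than in WT, by 1.66 and 1.09. The part that either had in the members' differences was not tested.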

How the results depend on the processing

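With the Ctrl vector, all 9 members were called in KO1 and in KO2 against WT under every alternative that kept 2 libraries per group. The share of all genes called ran from 47% (DESeq2) to 61.5% (Ctrl-vector libraries alone) in KO1. In KO2 it ran from 44.4% to 59.4% in the same fits. Dtymk in KO2 went to 0.29 without WT Ctrl replicate 2 and to 0.27 without KO2 Ctrl replicate 2. Of 1566 alternative values for single members, 1469 kept their direction and their side of the threshold, 30 lost the call, 23 gained it and 44 changed sign, none of them called. With the compared groups alone, 4 members were called in KO2 against KO1, where 32.2% of all genes were called. With the Ctrl-vector libraries alone 3 were called there, beside 29.9% of all genes. The compared groups alone called 1 member in KO2 against WT with the Myc vector (21.8% of all genes). In KO against WT under HU they called 1 member (Rrm1), beside 10% of all genes. At a threshold of 0.05, 1 member was called in KO against WT under HU (Rrm2b), where 11% of all genes were called. With a replicate block in edgeR, 1 member was called in HU against vehicle in KO (Rrm2b, adjusted p = 0.046), beside 7.36% of all genes. The same block called 1 member in KO against WT under HU (Rrm2b, adjusted p = 0.0089), beside 7.15% of all genes. Same-numbered samples did not deviate together throughout. In the HU experiment 0 of 6 pairs of groups had a correlation over 0.1. In the Myc experiment 4 of 15 did, up to 0.485 for WT Myc with KO1 Myc. The mean of the HU effects in WT and KO called 1 member (Tyms), beside 16% of all genes. It gave 0.17 for Dck, -0.0254 for Rrm1, -0.096 for Rrm2 and -0.0681 for Dtymk.

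As single libraries were left out, some values crossed 0. They ranged from -0.045 to 0.13 for Dut in Myc against Ctrl in WT, and from -0.0714 to 0.0851 for Dtymk in KO2. In KO1 against WT with the Myc vector they ranged from -0.175 to 0.061 for Rrm1, from -0.18 to 0.23 for Dck and from -0.215 to 0.00874 for Samhd1, and in KO2 from -0.0184 to 0.0836 for Dtymk. For HU against vehicle they ranged in WT from -0.28 to 0.20 for Rrm2b and from -0.26 to 0.21 for Dck, and in KO from -0.0413 to 0.0963 for Rrm2, from -0.11 to 0.094 for Dut, from -0.20 to 0.25 for Dtymk and from -0.311 to 0.0679 for Samhd1. For KO against WT with vehicle they ranged from -0.63 to 0.26 for Rrm2b, from -0.375 to 0.0319 for Tk1, from -0.442 to 0.0346 for Dck, from -0.0568 to 0.396 for Dtymk and from -0.0428 to 0.337 for Samhd1. With HU they ranged from -0.0889 to 0.00481 for Rrm2 and from -0.13 to 0.0303 for Dut. For the difference of the HU effects they ranged from -0.18 to 0.22 for Tyms, from -0.342 to 0.0647 for Tk1 and from -0.0515 to 0.401 for Dtymk. Dtymk in Myc against Ctrl in KO2 also became -0.0111 with RLE factors, -0.011 in DESeq2 and -0.0056 with the compared groups alone, Dtymk under HU in KO became -0.00458 with RLE factors and -0.0019 in DESeq2, and Dut there became 0.00114 with halved counts.

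Of the pathway list, 14 genes called in KO2 against WT with the Myc vector became 9 in DESeq2 and 8 with the groups alone, 8 in KO1 became 3 with the groups alone, and in DESeq2 0 were called under HU in KO and 1 in KO against WT under HU. Over all genes, DESeq2 called 727 and 456 in the HU comparisons of WT and KO against 1102 and 723, 396 and 402 in KO against WT with vehicle and HU against 626 and 677, and 5 against 8 for the difference of the HU effects. With the groups alone, 4029 genes were called in KO2 against KO1 (2398 in the fit of all libraries; 3818 with the Ctrl-vector libraries), 1541 and 2775 in KO1 and KO2 against WT with the Myc vector (3291 and 4614), and 1099 in KO against WT under HU. At 0.05, KO against WT gave 1349 genes with vehicle and 1233 with HU. Low counts limit Rrm2b in the HU experiment. The causes of these shifts were not tested.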
